A study of Mus musculus with 9 samples.

Results

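Skeletal muscle sarcomere genes were followed across 3 kinds of fetal mouse gonad. The 9 genes were chosen by name, with the fold changes and p-values of all 3 group comparisons in these tables already known, so their values in these comparisons are a description and not a test. They are the myosin heavy chains Myh8 and Myh3, the myosin light chains Myl1 and Mylpf, the sarcomeric actins Acta1 and Actc1, the fast troponin T gene Tnnt3, and the giant scaffold genes Ttn and Neb. Matched by mouse Ensembl gene ID, 6 of the 9 were among the 15300 genes of the tables (Myh8, Myh3, Myl1, Actc1, Ttn and Neb), and Acta1, Mylpf and Tnnt3 were not analysed here. The filter that set which genes the tables hold is not given in the sources used here.

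RNA was sequenced from gonads of C57BL/6 fetuses at stage E13.5, dissected free of the mesonephros and frozen, with 3 samples in each of 3 groups. XY-WT was the XY testis with genotype Sox9flox/flox and no Cre named, XX-WT was the XX ovary with the same floxed alleles, and XY-KO was the XY testis with genotype AMH-Cre; Sox9flox/flox. All groups thus carried floxed Sox9, and only XY-KO is labelled with Cre, which the AMH promoter drives in Sertoli cells, the supporting cells of the testis. Sertoli cells need the transcription factor SOX9 to differentiate, and the study compared the groups to learn what SOX9 does in the fetal testis. Single fetuses and pools are not distinguished by the labels, so errors and p-values describe the spread between samples, which may be technical. Sox9 itself was 6.78-fold lower in XY-KO than in XY-WT in the authors' deposited table (log2 fold change -2.76, limma adjusted p 8.93e-07), and Amh, a Sertoli cell hormone gene, was 4.16-fold lower. Values of single samples and their depths were not used here, so each gene is described by its group levels, in CPM (reads of a gene relative to the library's total, on a common scale), and by the authors' limma fold changes.

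The sarcomere is the contractile unit of striated muscle. Thick filaments of myosin pull on thin filaments of actin, troponin and tropomyosin open the thin filament to myosin when calcium arrives, titin runs as a spring along the thick filament, and nebulin lies along the thin filament. During development muscle fibres use embryonic and perinatal myosin heavy chains before the adult fast and slow ones, and the transcription factors MYOD, MYF5 and myogenin switch this programme on.

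Myh8, Myl1 and Myh3, which code for thick filament proteins, passed the authors' test in at least 1 comparison, Myh3 only in XX-WT against XY-WT. Over all genes 2.27% were called in XY-KO against XY-WT, 23.3% in XX-WT against XY-WT and 18.3% in XY-KO against XX-WT. The genes were chosen with these values known, and nothing is read from which filament they serve. The 250 bases before their RefSeq starts (GRCm38.p6, each on the gene's own strand) are shown because these genes passed. All 6 genes with values lay above 0 against XY-WT in XY-KO and in XX-WT, as did 7399 and 7707 of all 15300 genes. RefSeq entries were found for 7 of the 9 genes, and for 5 of the 6 with values. Capitals mark the E-box CANNTG, searched on both strands, the sequence class that MYOD and other basic helix-loop-helix factors bind. The window of Myh8 is chr11:67276874-67277123 (plus strand), that of Myh3 is chr11:67078050-67078299 (plus strand) and that of Myl1 is chr1:66945057-66945306 (minus strand), which lies inside the gene as GENCODE draws it, since GENCODE places the gene's outermost start farther upstream.
Myh8: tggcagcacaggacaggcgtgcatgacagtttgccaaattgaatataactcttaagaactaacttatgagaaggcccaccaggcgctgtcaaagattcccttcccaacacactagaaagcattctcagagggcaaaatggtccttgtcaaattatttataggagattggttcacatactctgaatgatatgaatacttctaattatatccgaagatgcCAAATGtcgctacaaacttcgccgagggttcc
Myh3: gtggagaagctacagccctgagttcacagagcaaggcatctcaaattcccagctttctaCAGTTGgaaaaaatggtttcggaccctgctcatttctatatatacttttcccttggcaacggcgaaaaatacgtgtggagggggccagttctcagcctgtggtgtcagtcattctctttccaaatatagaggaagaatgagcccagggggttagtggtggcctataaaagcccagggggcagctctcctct
Myl1: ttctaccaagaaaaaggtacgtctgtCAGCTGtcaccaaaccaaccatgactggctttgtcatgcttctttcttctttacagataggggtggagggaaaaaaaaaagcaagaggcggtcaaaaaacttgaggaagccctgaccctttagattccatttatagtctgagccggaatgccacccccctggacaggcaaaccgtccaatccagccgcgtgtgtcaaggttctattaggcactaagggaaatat
Each window held 1 E-box, beginning 32 bases before the start in Myh8, 191 in Myh3 and 224 in Myl1, where 66.2% of 32851 promoter windows of the same length held at least 1. The form CAGCTG, which is itself an E-box, was present in Myl1 and in 13% of all windows. TATAAA, on either strand, was present in all 3 windows and in 12.4% of all windows, beginning 96 bases before the start in Myh8, 29 in Myh3 and 95 in Myl1. Only the match in Myh3 lies on the gene's own strand. Among the members' windows not printed, Acta1 held TATAAA, and Ttn, Actc1 and Mylpf did not. The MEF2 motif was present in Myh8, where it overlapped the TATAAA match, and in 2.92% of all windows. ACAAT, a core sequence of SOX sites, was in none of the 3 windows and in 27.7% of all windows. Among the members' windows not printed, Ttn held both ACAAT and the MEF2 motif, and Acta1, Actc1 and Mylpf held neither. These matches describe letters in the window only.

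Myh8 codes for the perinatal myosin heavy chain, and was the best measured of the thick filament genes. It lies on chromosome 11 from 67277124 to 67308634 (GRCm38) on the plus strand. Its derived group level was 5.36 CPM in XY-WT, 17.0 CPM in XY-KO and 21.7 CPM in XX-WT, or 2.42, 4.08 and 4.44 in log2 CPM with standard errors (SE) of 0.203, 0.143 and 0.132. XY-WT stood alone at the low end, and the other groups lay close together. In the authors' deposited table Myh8 was 3.17-fold higher in XY-KO than in XY-WT (95% interval 2.20 to 4.57, limma adjusted p 0.00148), and it ranked 66 of 15300 genes by p. The authors' deposited table put it 4.05-fold higher in XX-WT than in XY-WT (95% interval 2.84 to 5.79, limma adjusted p 1.69e-05). XY-KO against XX-WT differed by -0.36 in log2 (95% interval -0.77 to 0.06, limma adjusted p 0.246 in the authors' deposited table). In bulk tissue, fewer cells of a type and less RNA per cell cannot be told apart, here and for every gene below.

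Myh3, the embryonic myosin heavy chain, lies in the same gene cluster (chromosome 11, 67078300 to 67102291, plus strand) and had a much lower level. Its derived levels were 0.245 CPM in XY-WT, 1.82 CPM in XY-KO and 2.77 CPM in XX-WT, with SEs of 0.887, 0.410 and 0.316 in log2. Against XY-WT its fold changes were the largest of the 6 genes and among the least certain. The authors' deposited table gave a log2 fold change of 2.90 (SE 0.978) in XY-KO against XY-WT, which did not pass (limma adjusted p 0.134), with a 95% interval from 1.76-fold to 31.5-fold. In XX-WT against XY-WT it gave 3.50 (SE 0.942, limma adjusted p 0.0132), which passed, and in XY-KO against XX-WT the deposited value was -0.60 (95% interval -1.71 to 0.50). At so low an XY-WT level the fold also depends on the offset the authors used before taking logs.

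Myl1, the fast alkali light chain that stabilises the myosin neck, lies on chromosome 1 from 66924295 to 66945404 on the minus strand. Its derived levels were 0.354 CPM in XY-WT, 2.12 CPM in XY-KO and 2.54 CPM in XX-WT, with SEs of 0.414, 0.199 and 0.176 in log2. XY-WT was again apart from the other groups. The authors' deposited table put Myl1 6.00-fold higher in XY-KO (95% interval 3.05 to 11.8, limma adjusted p 0.00607) and 7.18-fold higher in XX-WT (95% interval 3.70 to 13.9, limma adjusted p 0.000234), each against XY-WT. XY-KO against XX-WT was at -0.26 in log2 (95% interval -0.82 to 0.31) in the authors' deposited table.

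**Figure D1:**
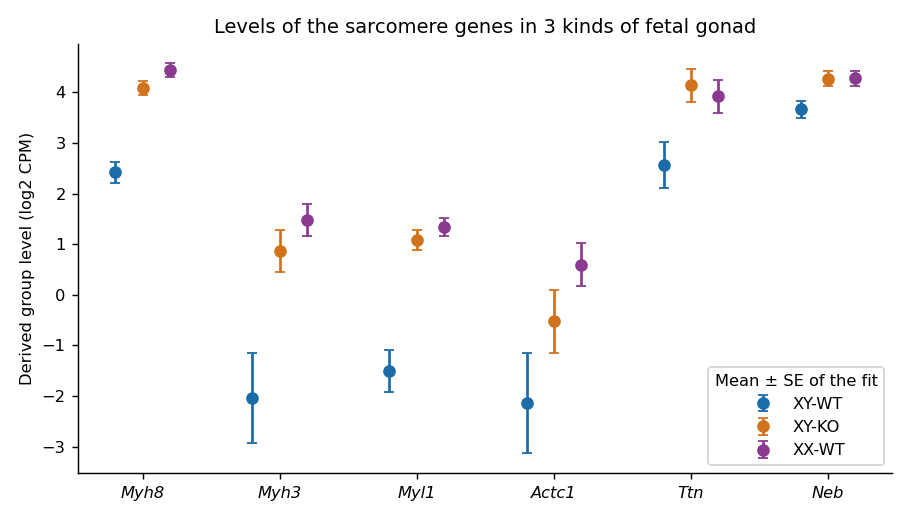
Derived group levels in log2 CPM of the 6 sarcomere genes with values, in XY-WT, XY-KO and XX-WT; points are group means of 3 samples and bars are SEs of the authors' fit. XY-WT is the lowest point for each gene, from 0.227 CPM for Actc1 to 12.7 CPM for Neb.

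Actc1, the cardiac alpha-actin that fetal skeletal muscle also uses in its thin filaments, had the lowest mean of the 6 genes (chromosome 2, 114047282 to 114053548, minus strand). Its derived levels were 0.227 CPM in XY-WT, 0.695 CPM in XY-KO and 1.51 CPM in XX-WT, with SEs of 0.996, 0.628 and 0.423 in log2. Neither change against XY-WT passed. The authors' deposited table gave 1.61 (95% interval -0.89 to 4.12, limma adjusted p 0.491) in XY-KO and 2.73 (95% interval 0.43 to 5.04, limma adjusted p 0.082) in XX-WT, and -1.12 (95% interval -2.73 to 0.49) in XY-KO against XX-WT.

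Ttn, the gene of the spring protein titin, lies on chromosome 2 from 76703980 to 76982547 on the minus strand, and its exons cover 116825 bases. Its derived levels were 5.91 CPM in XY-WT, 17.6 CPM in XY-KO and 15.2 CPM in XX-WT, with SEs of 0.457, 0.330 and 0.327 in log2. These levels are close to those of Myh8 before length is taken into account, yet no difference between groups passed for Ttn. The authors' deposited table gave log2 fold changes of 1.58 (SE 0.563, limma adjusted p 0.153) in XY-KO and 1.36 (SE 0.561, limma adjusted p 0.0945) in XX-WT, each against XY-WT. XY-KO against XX-WT was 0.22 (95% interval -0.77 to 1.20, limma adjusted p 0.809) in the authors' deposited table.

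Neb, the gene of the thin filament ruler nebulin, lies on chromosome 2 from 52136647 to 52378474 on the minus strand and had the highest mean of the 6 genes. Its derived levels were 12.7 CPM in XY-WT, 19.3 CPM in XY-KO and 19.4 CPM in XX-WT, with SEs of 0.161, 0.146 and 0.142 in log2. The span between groups was the smallest of the set. The authors' deposited table gave a 1.52-fold difference in XY-KO (95% interval 1.10 to 2.10, limma adjusted p 0.155) and a 1.53-fold difference in XX-WT (95% interval 1.11 to 2.10, limma adjusted p 0.0507), neither past the test. XY-KO and XX-WT differed by -0.01 in log2 (95% interval -0.44 to 0.43) in the authors' deposited table.

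**Figure D2:**
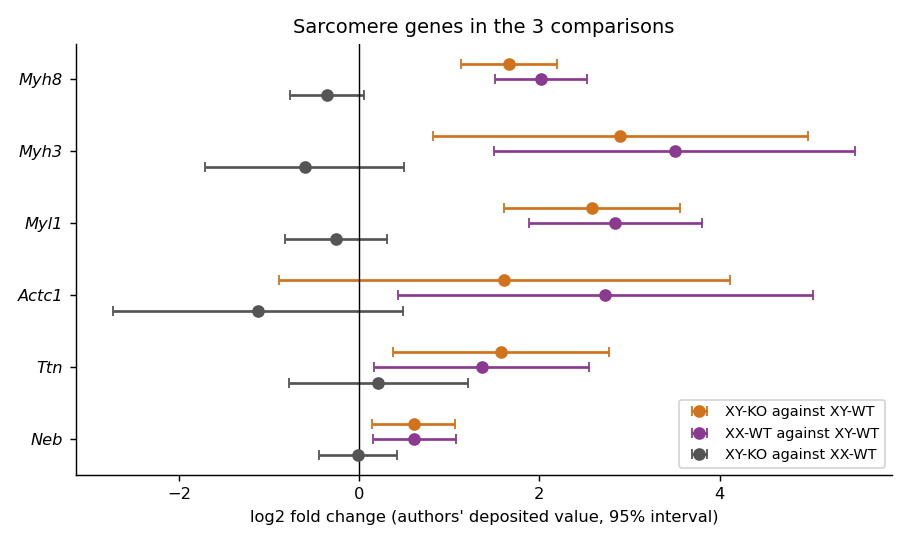
Log2 fold changes of the 6 genes from the authors' deposited tables in the 3 comparisons, with 95% intervals from the authors' t. The intervals of XY-KO against XX-WT all include 0, and those of XX-WT against XY-WT all lie above it, down to 0.16 for Neb.

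In the authors' deposited tables limma called 2 of the 6 genes higher in XY-KO than in XY-WT (Myh8 and Myl1) and 0 lower, where 0.699% of all genes were called higher, 1.57% lower and 2.27% in either direction. It called 3 higher in XX-WT than in XY-WT (Myh8, Myl1 and Myh3), where 10.9% of all genes were called higher and 23.3% in either direction. These counts describe genes that were chosen with these comparisons known, the 2 comparisons share the XY-WT samples, and nothing is read from the counts. In XY-KO against XX-WT limma called 0 of the 6, where 18.3% of all genes were called in either direction. An unadjusted limma p under 0.05 was held there by 0 of the 6, and by 4513 of all 15300 genes. A p that misses the threshold does not show equal levels: the intervals still allow Actc1 to be 6.64-fold lower, Myh3 3.27-fold lower and Ttn 2.30-fold higher in XY-KO than in XX-WT. For Neb the interval is narrower and reaches 1.36-fold.

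The order of the genes among themselves depended on length. Per kilobase of exon, the XX-WT level was highest for Myh8 (0.88 in log2 CPM per kilobase), followed by Myl1 (0.29), Actc1 (-0.10), Neb (-0.46), Myh3 (-1.13) and Ttn (-2.94). With an SE of 0.423, Actc1 did not stand apart from its neighbours Myl1 and Neb in this order. In XY-KO the level per kilobase was again highest for Myh8 (0.53) and lowest for Ttn (-2.73). In XY-WT the highest levels per kilobase were those of Neb (-1.07) and Myh8 (-1.14), and the lowest were those of Myh3 (-4.63) and Ttn (-4.31), each pair within its errors. These values divide by the length of all exons of a gene, which is 11772 bases for Myh8 against 6149 in its longest transcript. Per kilobase of the longest transcript, an alternative chosen after seeing the data, XY-WT levels were -0.20 for Myh8, -0.83 for Neb, -1.61 for Myl1, -4.18 for Ttn and -4.62 for Myh3.

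The genes also differed in how far the samples spread. Beside genes within 0.25 log2 CPM of its own level in the same group, Ttn had an SE 2.87 times the median in XY-WT, 2.88 times in XY-KO and 2.83 times in XX-WT, above 99.8%, 99.9% and 99.7% of those genes. The ratios are alike across groups because the fit estimates 1 spread per gene over all groups. Actc1 (1.72, 1.69 and 1.67 times) and Myh3 (1.56, 1.70 and 1.60 times) were also widely spread. Myh8 (1.23 to 1.24 times) and Neb (1.29 to 1.30 times) were nearer the median, and Myl1 was below it (0.836 to 0.869 times). Ttn and Myh8, at like CPM and with log2 changes of 1.58 and 1.66 in XY-KO against XY-WT, fell on opposite sides of the threshold with SEs of 0.563 and 0.248. Which samples carried the spread of Ttn cannot be read from group values.

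**Figure D3:**
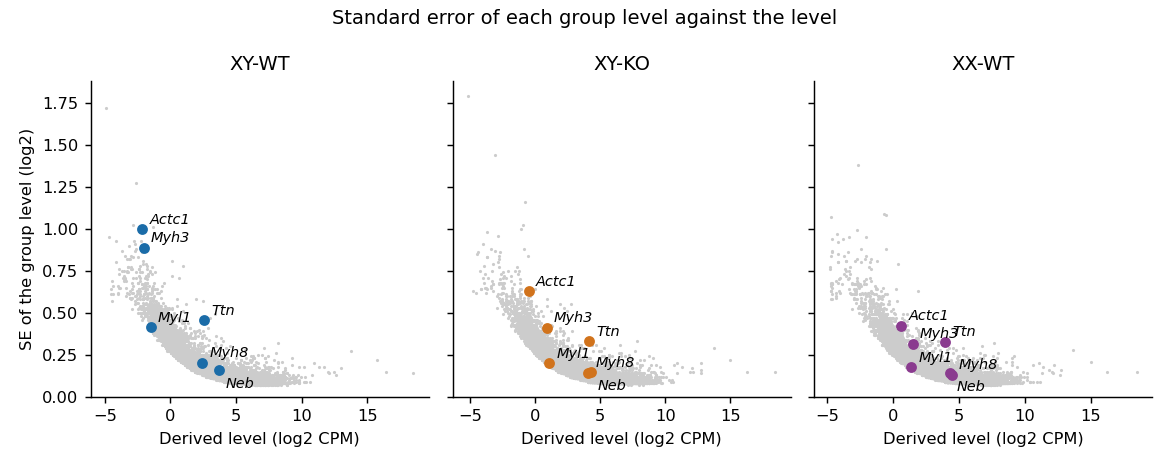
SE of each derived group level in log2 against the level in log2 CPM, for all genes (grey) and the 6 sarcomere genes (coloured), in XY-WT, XY-KO and XX-WT. Ttn lies well above genes of its level in each panel, at SEs of 0.457, 0.330 and 0.327, and Myl1 lies inside the cloud.

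Myh8 and Myh3 belong to a cluster of myosin heavy chain genes on chromosome 11 that spans 293 kilobases from Myh3 to Myh13. Of its members Myh3, Myh1, Myh8 and Myh13 had values, and Myh2 and Myh4, both adult fast myosins, were not analysed here. The values of the cluster's genes against XY-WT were all above 0, and differences between them were not tested. In the authors' deposited tables Myh1, an adult fast myosin between Myh3 and Myh8, was at 0.37 in XY-KO and 0.23 in XX-WT against XY-WT (limma adjusted p 0.738 and 0.787), with a 95% interval of -0.70 to 1.44 in XY-KO. Myh13, the extraocular myosin next to Myh8, was at 1.22 in XY-KO (limma adjusted p 0.189) and rose by 2.38 in XX-WT (limma adjusted p 0.000935) in the authors' deposited tables. In XY-KO against XX-WT the authors' deposited table put Myh13 at -1.17 (limma adjusted p 0.0216). The genes that flank the cluster gave log2 changes of 0.09 (Sco1) and -0.63 (Gas7) in XY-KO against XY-WT in the authors' deposited table, the latter with a limma adjusted p of 0.0179. In XX-WT against XY-WT they were at -0.14 and -2.02 (limma adjusted p 0.711 and 4.23e-08). Beyond Sco1, Tmem220 was at 0.94 in XY-KO and 1.21 in XX-WT (limma adjusted p 0.134 and 0.00928), and Adprm at 0.16 and 0.09.

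Shared sequence touched the members to different degrees. Of the 6000 windows of 150 nt (the read length) in the longest Myh8 transcript, 96, or 1.6%, occurred exactly in another gene, 64 of them in Myh13. The share was 0.306% for Myh3, 1.93% for Myl1, all of it in the pseudogene Mylf-ps, and 0 for Ttn, Actc1 and Neb. Exons of Ttn and Neb overlap antisense genes (Gm13938 and Gm13522), and whether the authors counted reads by strand is not given in the sources used here, so reads of the pairs cannot be told apart.

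Other genes of the sarcomere were listed from textbook knowledge with earlier results known, and 20 of 47 had values. Limma called 0 of the 20 in XY-KO against XY-WT in the authors' deposited table, where 2.27% of all genes were called. An unadjusted limma p under 0.05 was held by 4 of the 20, and by 2899 of all 15300 genes. In that comparison 15 of the 20 lay above 0, and their median log2 fold change was 0.35 beside -0.01 over all genes; the difference from the 6 genes was not tested. In XX-WT against XY-WT the authors' deposited table held 5 called higher and 3 called lower among the 20, where 10.9% and 12.4% of all genes were called, with a median of 0.16 beside 0.00. In XY-KO against XX-WT 2 were called higher and 4 lower, where 9.16% and 9.11% of all genes were called.

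The 5 genes higher in XX-WT were Mybpc1, Smyd1, Myh13, Nebl and Tnnt1. The authors' deposited table gave Mybpc1, the slow myosin-binding protein C, 2.77 (SE 0.550, limma adjusted p 0.00167), Smyd1, a methyltransferase needed for myosin assembly, 2.42 (limma adjusted p 0.00403), Myh13 as above, Nebl, the nebulin relative of the heart, 2.21 (limma adjusted p 0.000918) and Tnnt1, the slow troponin T, 0.77 (limma adjusted p 0.012). In XY-KO against XY-WT the same genes stood at 0.67 (Mybpc1), 0.92 (Smyd1), -0.05 (Nebl) and 0.55 (Tnnt1) in the authors' deposited table, with adjusted p from 0.177 to 0.972. Mybpc1 (-2.10), Smyd1 (-1.50), Nebl (-2.26) and Myh13 were lower in XY-KO than in XX-WT in the authors' deposited table, each past the test.

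Tropomyosins wind along actin in muscle and in other cells. Of the 3 on the list with values, Tpm1 and Tpm2 were lower in XX-WT than in XY-WT, and none passed in XY-KO against XY-WT. Tpm1 had the highest mean of the list (8.26 in log2 CPM), and in the authors' deposited tables it was at -0.98 in XX-WT against XY-WT (SE 0.114, limma adjusted p 1.19e-05) and at 0.27 in XY-KO (limma adjusted p 0.219). Tpm2 was at -0.80 in XX-WT (limma adjusted p 0.012) and -0.06 in XY-KO, and Tpm3 at -0.20 and 0.03, in the authors' deposited tables. Mybph, a relative of myosin-binding protein C, was at -0.78 in XX-WT (limma adjusted p 0.0241) and -0.24 in XY-KO in the authors' deposited tables.

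**Figure D4:**
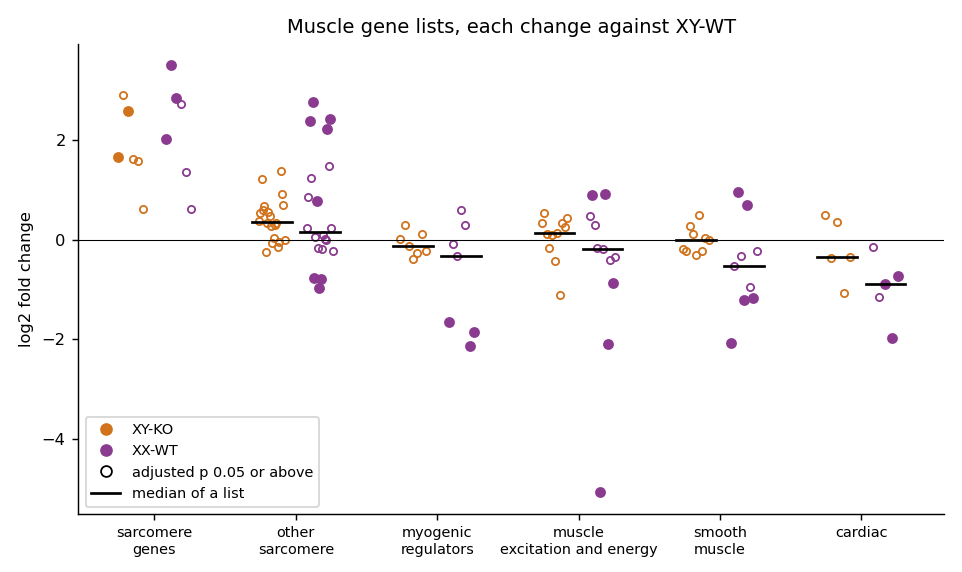
Log2 fold changes from the authors' deposited tables against XY-WT, in XY-KO (orange) and XX-WT (purple), for the 6 sarcomere genes and 5 lists; filled points passed a limma adjusted p under 0.05 and bars are medians of the lists. In XY-KO no point of the 5 lists is filled, and their medians run from -0.35 (cardiac) to 0.35 (other sarcomere).

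The regulators that define skeletal muscle cells had no values: Myod1, Myog, Myf5, Myf6, Pax3, Pax7, Mymk and Mymx were among 13 of 20 listed regulators not analysed here. The lowest mean in the tables was -3.3 in log2 CPM, but the gene filter is not given. The level of an absent gene is therefore unknown. Muscle creatine kinase (Ckm), myoglobin (Mb) and the muscle calcium channel Cacna1s were among 21 of 32 listed excitation and energy genes without values. The other 11, Ryr1 and Eno3 among them, had values. The name skeletal muscle is used for what the genes code for, and whether such cells were in the samples was not tested. The summed level of the 6 sarcomere genes was 24.8 CPM in XY-WT, 58.5 CPM in XY-KO and 63.1 CPM in XX-WT, and the part of muscle cells in it was not tested.

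The 7 regulators with values are used in other tissues as well. Limma called 0 of them in XY-KO against XY-WT in the authors' deposited table, where 2.27% of all genes were called, with a median of -0.12. An unadjusted limma p under 0.05 was held by 1 of the 7, and by 2899 of all 15300 genes. Their summed level was 342 CPM in XY-WT, 355 CPM in XY-KO and 237 CPM in XX-WT. Mef2c, a MADS-box factor of muscle and vessels, was at 0.01 in XY-KO and -1.66 in XX-WT against XY-WT (limma adjusted p 2.02e-07 in XX-WT) in the authors' deposited tables. Eya1 (-2.15) and Tcf21 (-1.86), the latter a factor of mesenchyme, were also lower in XX-WT in the authors' deposited table, where 12.4% of all genes were called lower, and Mef2a (-0.09) and Mef2d (-0.32) did not pass. In XY-KO against XX-WT 4 were called higher (Mef2c, Eya1, Tcf21 and Mef2a) and 1 lower (Six4, at -0.58) in the authors' deposited table, where 9.16% and 9.11% of all genes were called.

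Genes of muscle excitation and energy use gave 11 with values of 32 listed, and their summed level was 39.3 CPM in XY-WT, 44.8 CPM in XY-KO and 29.8 CPM in XX-WT. Without Casq2, which fell from 11.3 CPM in XY-WT to 0.332 CPM in XX-WT, the sums were 28.0, 32.9 and 29.5 CPM. Limma called 0 of the 11 in XY-KO against XY-WT in the authors' deposited table, where 2.27% of all genes were called, with a median of 0.14. An unadjusted limma p under 0.05 was held by 1 of the 11, and by 2899 of all 15300 genes. In XX-WT against XY-WT 2 were higher and 3 lower in the authors' deposited table, where 10.9% and 12.4% of all genes were called. Ryr1, the calcium release channel of skeletal muscle, was at 0.89 (limma adjusted p 0.0169) and Eno3, the muscle enolase, at 0.92 (limma adjusted p 0.00768), while Casq2, the cardiac calsequestrin, was at -5.08 (SE 0.441, limma adjusted p 5.91e-07), Pgam2 at -2.10 and Dysf, a membrane repair gene, at -0.87. In XY-KO against XY-WT the authors' deposited table gave Ryr1 0.53, Eno3 0.14, Casq2 0.09, Pgam2 -1.12 and Dysf 0.25, none past the test. In XY-KO against XX-WT Casq2 (5.17), Dysf (1.12) and Pygm (0.75) were higher and Eno3 (-0.78) was lower in the authors' deposited table, where 9.16% and 9.11% of all genes were called.

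Among 7299 named genes outside the lists and at or above the median mean expression, those nearest to the median position of the 6 genes (1.64 in XY-KO and 2.38 in XX-WT, log2 fold changes against XY-WT) were found by Euclidean distance over these 2 values, which rest on 3 groups only. They were the calcium channel gene Cacna1d (distance 0.313), the aldo-keto reductase Akr1c14 (0.353), the sialomucin Podxl (0.516), the tight junction gene Cgn (0.642), the calcium release channel gene Ryr2 (0.736), the heparan sulfatase Sulf1 (0.763), Zbtb7c (0.768) and the desmosomal cadherin Dsc2 (0.855). In XY-KO against XX-WT limma called each of these neighbours lower in the authors' deposited table, from -0.52 (Dsc2) to -1.78 (Ryr2). Over all genes 9.11% were called lower there, and 0 of the 6 sarcomere genes. That comparison is the difference of the 2 values used for the distance, so it is no separate measure of likeness. Calls also depend on the SE. Actc1 (-1.12) and Myh3 (-0.605) lay within the neighbours' range and were not called, while Myh8, Myl1, Neb and Ttn lay outside it. Whether the likeness extends to that comparison was not tested. Myh8 and Actc1 were 0.358 from the median position, equal because that position is their midpoint. Ttn was 1.02 from it, Myl1 1.06, Myh3 1.69 and Neb 2.04.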

How the data were processed

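Per the labels' protocols, total RNA was column-purified, amplified by the SPIA method and sequenced as pairs of 150 nt reads. Per the submitters' processing notes the tools included limma 3.24.0, HTSeq 0.6.1p1, TopHat2 2.0.8 and Trimmomatic 0.30, with the genome GRCm38. The authors deposited 3 limma tables over 15300 genes each, with log2 fold changes and mean log2 expression, read as log2 CPM. Per the file headers they also hold limma p-values, adjusted p-values, and the t and log-odds scores of the authors. The amplification and the authors' gene filter may bear on low genes; sample depth is unknown here, so no counting interval was computed.

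From these values the SE was taken as log2 fold change over t, with 95% intervals at 15.27 degrees of freedom. Recomputed Benjamini-Hochberg values were within a relative 0.000769 of the deposited ones, and the 3 fold changes added up within 0.005. The level of a group was computed from mean expression and fold changes, taking groups as equally weighted, and their SEs from the 3 SEs; the SEs differ between comparisons, so the authors' fit was weighted and the levels are approximate. A gene was called at an adjusted p under 0.05 over all genes. Members and lists were chosen with earlier results of these data known. The named genes were the 6 members with values, list genes called in any comparison, and the 3 highest means of each muscle list. Other genes named were chosen after their values were seen.

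Positions, exon lengths and transcripts came from GENCODE M21 (GRCm38). Counts were repeated under 6 alternatives; the removal of the trend over GC content and length (robust regression, degree 3) was tested on simulated data. Computation used statsmodels 0.14.6, scipy 1.17.1, pandas 2.3.3 and numpy 2.4.6 in Python 3.11.15. The list of neuron and neural crest genes is not reported here.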

Additional observations from a re-analysis of the deposited data

How the results depend on the processing

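Removal of the trend over GC content and length, the only alternative that alters fold changes, kept the sign of 18 of 18 values of the 6 sarcomere genes. Of 99 single-gene results 93 kept their side of the threshold, 5 lost their call and 1 gained it. A result that was not called cannot change under a stricter threshold, so much of the 93 was fixed in advance. Counts of called genes moved as follows, and where a threshold was made stricter or fewer genes were tested the alternative itself lowers the count. With Bonferroni adjustment, called sarcomere genes were 0 in XY-KO and 1 in XX-WT against XY-WT; other sarcomere genes were 1 in XX-WT against XY-WT and 1 in XY-KO against XX-WT; regulators were 3 in XY-KO against XX-WT; excitation and energy genes were 1 in each of these comparisons. Over genes at or above median expression, 1 sarcomere gene was called in XY-KO, other sarcomere genes were 2 in XX-WT against XY-WT and 2 in XY-KO against XX-WT, and excitation and energy genes were 0 in both because 0 of the 11 lie at or above that median. At an adjusted p under 0.01, other sarcomere genes were 5 in XX-WT against XY-WT and 3 in XY-KO against XX-WT. Regulators were 3 and excitation and energy genes 2 in XY-KO against XX-WT. Of all 15300 genes, 922 were then higher and 1205 lower in XX-WT against XY-WT, and 896 and 803 in XY-KO against XX-WT. With a 2-fold limit, other sarcomere genes were 4 in XX-WT, regulators 3 in XY-KO against XX-WT, and excitation and energy genes 2 and 2. Of all genes, 876 were then higher and 960 lower in XX-WT against XY-WT, and 803 and 737 in XY-KO against XX-WT. Neb passed in XX-WT against XY-WT once only genes at or above median expression were tested (adjusted p 0.0487), and Myh3 did not pass there at 0.01. Removal of the GC and length trend put Neb at 0.493 in XX-WT and 0.427 in XY-KO, each against XY-WT. The recomputed t then gave it Benjamini-Hochberg adjusted p of 0.118 and 0.361. With Bonferroni adjustment of the limma p, only Myh8 in XX-WT against XY-WT stayed called. Myh8 in XY-KO against XY-WT then had an adjusted p of 0.0977, and Myl1 had 0.683 in XY-KO and 0.192 in XX-WT. Myh3 in XX-WT against XY-WT lost its call too. Over all genes, adjustment over the 3 comparisons together gave 375 higher and 547 lower in XY-KO against XY-WT beside 107 and 240, and removal of the trend gave 77 and 169. Bonferroni adjustment gave 5 and 50 there, 234 and 393 in XX-WT against XY-WT, and 273 and 208 in XY-KO against XX-WT. Testing only genes at or above median expression gave 71 and 135, 797 and 1082, and 753 and 644 in the same order. That trend was 0.17 for Ttn and 0.18 for Neb in XY-KO. Levels per kilobase of the longest transcript moved by more than their SE for Myh8, Myl1 and Neb. No paired analysis was possible because the tables hold no values of single samples, and for the same reason no replicate was left out.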

Other observations

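Genes of other contractile cells were described beside the sarcomere genes. Of 12 smooth muscle genes 9 had values, and in XY-KO against XY-WT limma called 0 of them in the authors' deposited table (0 at an unadjusted p under 0.05), with a median of -0.02, where 2.27% of all genes were called, so counts of 0 in lists this short are near the background. In XX-WT against XY-WT 3 were lower and 2 higher in the authors' deposited table, where 12.4% and 10.9% of all genes were called, among them Acta2, smooth muscle actin, at -2.08 (limma adjusted p 3.54e-07), the light chain kinase gene Mylk at -1.18, Smtn at -1.21 and the smooth muscle myosin Myh11 at 0.96 (limma adjusted p 0.00171). Of 12 cardiac genes 5 had values, none was called in XY-KO by limma (0 at an unadjusted p under 0.05), and 3 were lower in XX-WT in the authors' deposited table, among them cardiac troponin I (Tnni3) at -0.89. Nppa, Nppb and Nkx2-5 were not analysed here. All 13 non-muscle actin and myosin genes had values, and limma called 0 in XY-KO (3 at an unadjusted p under 0.05, with a median of -0.20). In XX-WT 4 were lower and 1 higher, the light chain Myl9 at 1.26 in the authors' deposited table. Of all 15300 genes, 2899 had an unadjusted limma p under 0.05 in XY-KO against XY-WT.

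Markers of tissues next to the gonad were read in the same way. Mesonephric genes, 6 with values of 9, had 5 higher and 1 lower in XX-WT against XY-WT in the authors' deposited table. None was called by limma in XY-KO against XY-WT (2 at an unadjusted p under 0.05, with a median of -0.04). In XY-KO against XX-WT 1 was called higher and 5 lower, where 9.16% and 9.11% of all genes were called. Over all genes 10.9% were called higher and 12.4% lower in XX-WT, and 2.27% were called in XY-KO. Of all 15300 genes, 2899 had an unadjusted limma p under 0.05 in XY-KO against XY-WT. The summed level of the mesonephric genes was 72.6 CPM in XY-WT, 93.7 CPM in XY-KO and 212 CPM in XX-WT, most of it Emx2, a gene the gonad also uses, and 14.6, 12.1 and 22.2 CPM without Emx2. Tendon, cartilage and bone genes, 5 with values of 12, had 0 called in XY-KO by limma (1 at an unadjusted p under 0.05), 3 lower and 1 higher in XX-WT, and a summed level of 59.6, 67.9 and 41.3 CPM in the same order, or 16.1, 15.7 and 11.2 CPM without Hapln1. Of the liver, skin and adrenal genes 5 of 12 had values, limma called 0 in XY-KO (0 at an unadjusted p under 0.05), and 3 were lower in XX-WT in the authors' deposited table, the adrenal enzyme gene Cyp11b1 at -4.05 among them. The part of these tissues in the sarcomere levels was not tested.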
